A study of Mus musculus with 10 samples.

Results

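Somatic cells of the mouse testis secrete factors that act on the germ cells, on neighbouring somatic cells and into the tubule fluid. The 10 such genes described here, Clu, Amh, Inha, Inhbb, Kitl, Gdnf, Dhh, Trf, Ptgds and Lcn2, were taken by name from the 28125 genes of the scRNA-seq matrix and the 30670 genes of the scATAC-seq matrix. All 10 were found in both. Testis nuclei of wild-type C57BL/6J mice (11, 17 and 25 dpp) and of mice aged 8 weeks, 1 group Cre/+ and 1 group Nfya-CKO, gave RNA and accessible chromatin together, with 1 library per condition and assay. Cre/+ mice carry Stra8-Cre, which is active in spermatogonia, and Nfya-CKO mice are Nfya fl/fl; Stra8-Cre, so that the deletion is meant for germ cells and the somatic cells of both keep intact Nfya by design. The number of mice behind each library was not given in the sources used here. Each value below is the authors' mean for 1 of 13 cell populations, pooled over libraries, and carries no replicate error. The 9 control germ cell populations run from undifferentiated and differentiating spermatogonia (SpG) through spermatocytes at preleptotene (pL), 2 groups spanning leptotene to zygotene (eL/L/Z) and up to early pachytene (L/Z/eP), later pachytene (mP/lP) and diplotene (D), to round (RS) and elongating (ES) spermatids. The other 4 are Sertoli cells, other somatic cells, unknown cells and SpG of the Nfya-CKO library (491 cells). RNA levels are mean UMIs, that is counted transcript molecules, per 10000 UMIs of a cell.

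Sertoli cells line the seminiferous tubule, nurse the germ cells and seal the tubule from the blood. Among the factors they are known to make, Amh (anti-Müllerian hormone) belongs to the fetal and juvenile Sertoli cell, and the inhibin α and βB chains Inha and Inhbb form the hormone that lowers FSH release by the pituitary. Kitl (stem cell factor) and Gdnf act on spermatogonia through the receptors KIT and RET/GFRA1. Dhh (desert hedgehog) signals to Leydig and peritubular cells through PTCH1. Clu (clusterin) and Trf (transferrin) are abundant secreted proteins, a chaperone and an iron carrier. Ptgds (prostaglandin D2 synthase) and Lcn2 (lipocalin 2) belong to the lipocalins, which carry small lipophilic ligands. Leydig cells lie outside the tubule and make testosterone and Insl3.

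By the GRCm38 annotation of RefSeq, Inha lies at chr1:75507077-75510366 and Inhbb at chr1:119415463-119422248, and Amh and Kitl at chr10:80805240-80807679 and chr10:100015615-100100416. Clu lies at chr14:65968483-65981548, Gdnf at chr15:7810048-7837580, Dhh at chr15:98881615-98898562, Trf at chr9:103208876-103230286, Ptgds at chr2:25466709-25470110 and Lcn2 at chr2:32384637-32387739. Inhbb, Dhh, Trf, Ptgds and Lcn2 are on the minus strand and the other 5 on the plus strand. None of the 10 overlaps another gene of that annotation, but Dhh ends 118 bases from Rhebl1 and Amh 318 bases from Sf3a2, so signal in a window around either gene can include its neighbour.

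NFYA, the factor deleted in the study, binds the CCAAT box. RefSeq promoter windows (GRCm38.p6, 250 bases before to 50 after a start site) were found for 7 of the 10 genes, 8 windows in all, with none for Clu, Amh and Trf. CCAAT on either strand was found in 2 of the 8, 1 in Inha and 1 at the second start of Gdnf, beside 37.4% of all 32851 windows. AAGGTCA, a site of the steroidogenic factor NR5A1, and AACAAT, a SOX site, were searched for on both strands too. Neither was found in the 8 windows, and they occur in 4.72% and 10.7% of all windows. A match of letters is a description and no evidence of binding. Below are the exon-free parts of the 250 bases before the start for both genes with a CCAAT box, which is in capitals in whichever orientation it lies (CCAAT, or ATTGG on the opposite strand), and for the 2 lipocalin genes, whose RNA pattern differed from that of the rest. The Gdnf stretch is chr15:7813477-7813726 (plus strand, between exons within the gene), Inha is chr1:75507519-75507608 (plus) and Ptgds is chr2:25469843-25469999 (minus), both also within the span of their gene, and Lcn2 is chr2:32387798-32387850 (minus), outside its span.
Gdnf: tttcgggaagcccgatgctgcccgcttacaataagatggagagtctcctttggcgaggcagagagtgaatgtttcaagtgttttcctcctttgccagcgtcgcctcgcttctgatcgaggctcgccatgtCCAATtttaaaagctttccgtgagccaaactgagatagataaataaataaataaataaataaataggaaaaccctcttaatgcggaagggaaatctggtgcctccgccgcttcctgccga
Inha: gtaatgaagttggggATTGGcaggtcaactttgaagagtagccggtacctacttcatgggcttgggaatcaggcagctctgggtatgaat
Ptgds: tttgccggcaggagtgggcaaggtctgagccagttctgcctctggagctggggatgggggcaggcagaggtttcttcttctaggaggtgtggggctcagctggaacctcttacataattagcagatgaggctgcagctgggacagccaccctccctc
Lcn2: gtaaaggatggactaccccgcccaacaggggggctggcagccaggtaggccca

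Cells of 2 somatic populations carry the comparison, and they did not come from the same mice. Sertoli cells numbered 3265, of which 2866 were in the wild-type library of 11 dpp and 382 in that of 17 dpp. The 25 dpp library added 14, Cre/+ 2 and Nfya-CKO 0. The population that the authors call other somatic cells numbered 5883, of which 4633 (78.8%) came from the library labelled Nfya-CKO and 341 from Cre/+. Age, genotype and cell mix therefore cannot be told apart between both populations. Other somatic cells joined 6 clusters of the authors with median depths of 876.5 to 15720 UMIs per cell and 8.78% to 100% of cells from Nfya-CKO. Over all cells the median depth was 10904 UMIs per Sertoli cell and 1525 per other somatic cell, and the totals were 43524515 and 44390019 UMIs. The library is named by its label because Nfya RNA was 1.11 per 10000 in its SpG, against 0.456 in undiff. SpG and 0.667 in diff. SpG of the other libraries. The deletion removes only some exons of Nfya, so a count per gene cannot show whether it took place. By western blot and immunohistochemistry, the paper reports loss of NFYA protein in germ cells of Nfya-CKO testes and not in somatic cells.

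Libraries also shared cell barcodes. The 45250 scRNA-seq cells carried 39716 distinct barcodes, and 3813 barcodes occurred both in the Cre/+ and in the Nfya-CKO library. Among pairs of wild-type libraries 621 to 853 were shared, and between a wild-type library and either of the 8-week-old ones 0 to 19. Of the 4633 other somatic cells of the Nfya-CKO library, 3628 (78.3%) had a barcode that Cre/+ also held. In Cre/+ that barcode was named a germ cell in 91.1% of the pairs and held a median of 9447 UMIs, against 1209 in Nfya-CKO. Over all libraries 70.1% of other somatic cells, 59.7% of ES, 35.6% of Nfya-CKO SpG and 6.56% of Sertoli cells had a shared barcode. Between the scATAC-seq libraries of Cre/+ and Nfya-CKO, 92 barcodes were shared. Yet of the 1217 other somatic cells of Nfya-CKO with a scATAC-seq profile, 935 (76.8%) had a scRNA-seq barcode that Cre/+ also held. Over the 3628 pairs, 68.4% had a scATAC-seq profile in Cre/+ and 25.8% in Nfya-CKO. Because the matrices hold 1 mean per population, no value below could be computed without these cells, and their part in the results was not tested.

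**Figure D1:**
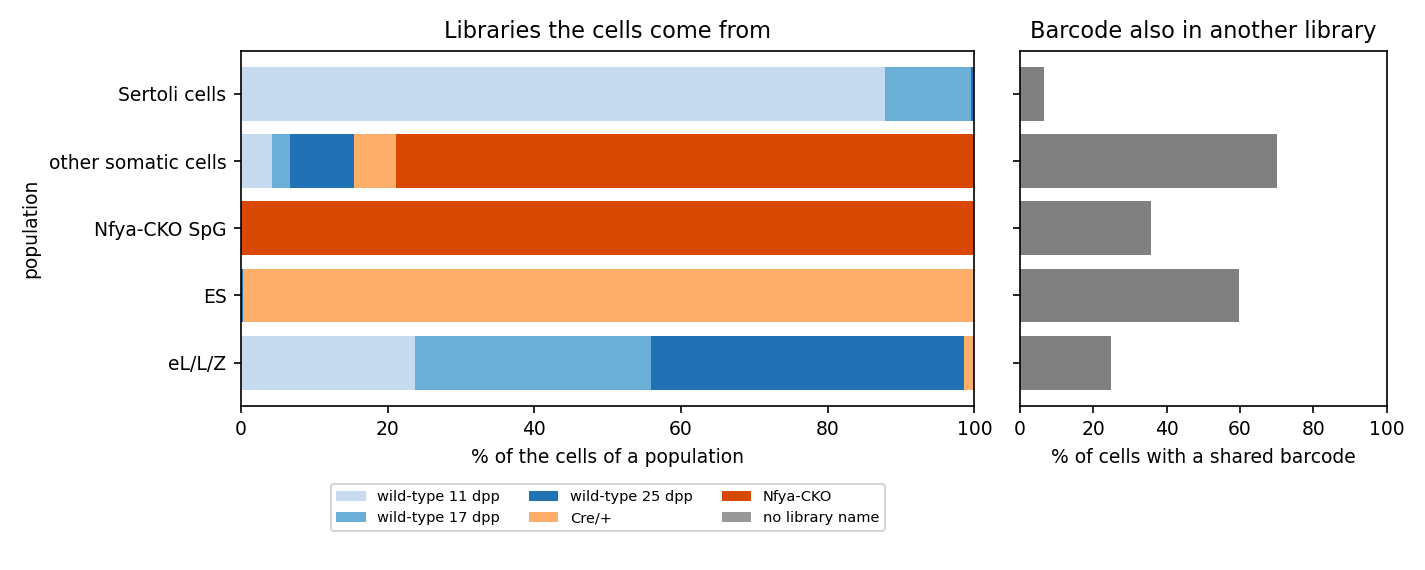
Share of the cells of 5 scRNA-seq populations that came from each library (left, percent, stacked) and share whose barcode also occurred in another library (right, percent). Sertoli cells were 87.8% from 11 dpp and other somatic cells 78.8% from Nfya-CKO, with shared barcodes in 6.56% and 70.1%.

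Markers showed what each population held. Sertoli cells had Sox9 at 10.7, Wt1 at 10.1, Cldn11 at 16.0 and Aard at 24.8 UMIs per 10000, and the 8 Leydig markers summed to 1.19. Other somatic cells had both kinds: the Leydig markers summed to 228.1, with Insl3 at 177.5 and Cyp17a1 at 31.2, and the 12 Sertoli markers to 47.9 against 109.1 in Sertoli cells, with Sox9 at 3.54 and Wt1 at 3.24. Of the 12, 7 were at least 2-fold lower there and 1, Tsx, at least 2-fold higher (0.215 and 1.72). Of the 1942 other somatic cells with a scATAC-seq profile, 1039 (53.5%) were named Sertoli cells from their chromatin and 729 (37.5%) somatic cells. The 5 peritubular markers summed to 4.97 in other somatic cells against 0.295 in Sertoli cells, the 7 macrophage markers to 1.35 against 0.370, and the 6 neutrophil markers to 0.0262 against 0.00851, at or near 0. The 5 spermatid markers summed to 5.37 in other somatic cells, 0.0129 in Sertoli cells and 120.9 in ES. Other somatic cells were thus a mixture, in which fewer cells of a type and less RNA per cell cannot be told apart.

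The 6 genes Amh, Inha, Inhbb, Kitl, Gdnf and Dhh had their highest RNA level of the 13 populations in Sertoli cells, and 4, Clu, Trf, Ptgds and Lcn2, had it in other somatic cells. Of all 15036 genes whose mean was 0.05 per 10000 or more over the 9 control germ cell and 2 somatic populations, 17.5% had their highest level in either of these somatic populations. The 10 genes were picked as somatic factors, so nothing is read from that difference. On the log2 scale of value + 0.1, 4 of the 10 were at least 2-fold higher in other somatic cells than in Sertoli cells, beside 17.8% of 13697 genes tested, and 4 were at least 2-fold lower (Amh, Inhbb, Kitl and Dhh), beside 6.8%. All 10 passed the filter on low values, a mean of 0.05 over both populations, which Amh passed through Sertoli cells and Lcn2 through other somatic cells. The median log2 ratio, other somatic over Sertoli, was -0.69 over the 10 genes and 0.16 over all genes tested.

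**Figure D2:**
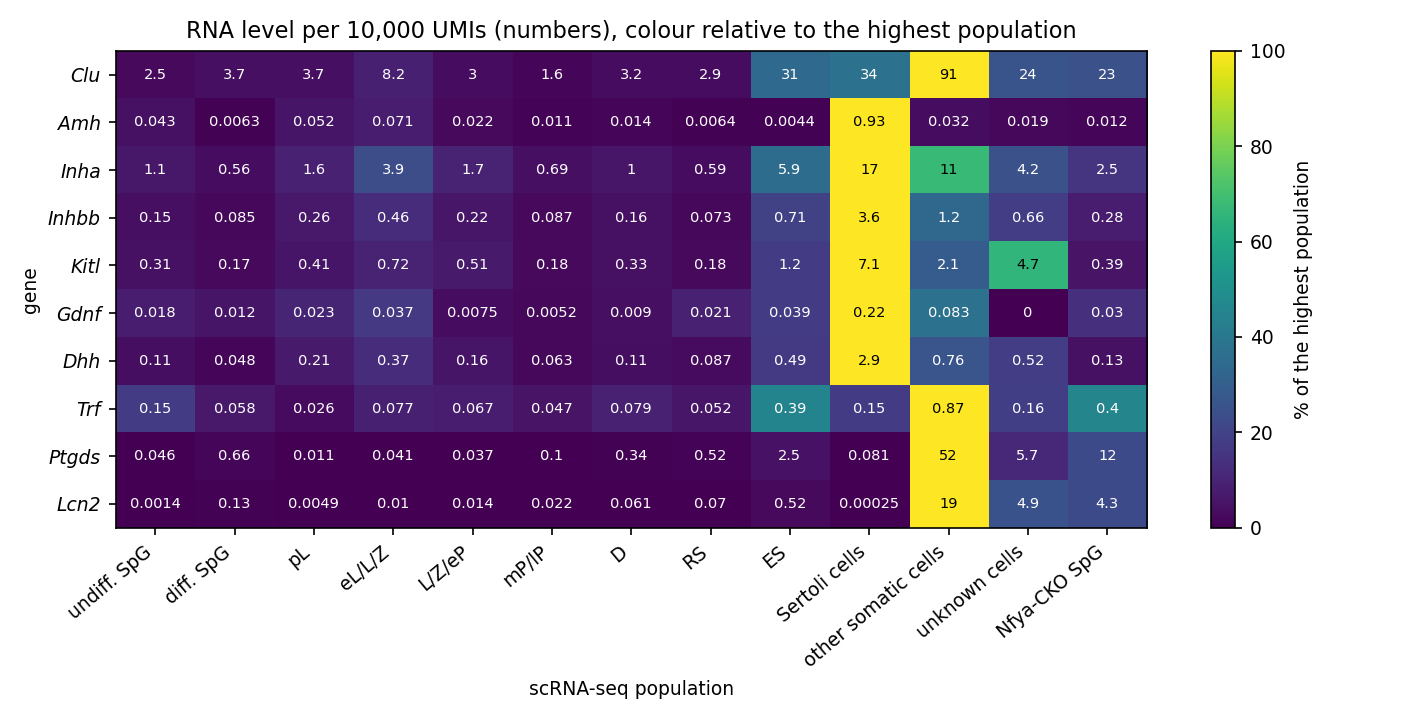
RNA level of the 10 genes (rows) in the 13 scRNA-seq populations (columns). Printed numbers are UMIs per 10000 and the colour is the percent of each gene's highest population. Amh, Inha, Inhbb, Kitl, Gdnf and Dhh peak in Sertoli cells, and Clu, Trf, Ptgds and Lcn2 in other somatic cells.

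Amh had the largest log2 ratio in the direction of Sertoli cells with 0.1 added. Its level was 0.927 per 10000 in Sertoli cells and 0.0321 in other somatic cells, a log2 ratio of -2.96. The size of that ratio depends on the added value: it was -4.48 with 0.01 added and -0.90 with 1 added, under 2-fold and smaller than that of Kitl (-1.40), Dhh (-1.14) and Inhbb (-1.06). The 9 control germ cell populations lay between 0.00436 and 0.0710, with eL/L/Z at the upper end. ES and diff. SpG rest on about 1.68 and 4.49 UMIs, and unknown cells (0.0185) and Nfya-CKO SpG (0.0116) on about 1.38 and 11.3, which are too few to rank. Each of the 12 populations other than Sertoli cells was thus at 0.0710 or less. The genes most like Amh over the 13 populations were H2-Q10 (Pearson's r of log2(value + 0.1) 0.96), Prrg1 (0.94) and Stra6 (0.93). H2-Q10 belongs to a family of near-identical MHC genes and its count is uncertain, and all 3 were lower in other somatic cells, Stra6 at 0.266 against 2.91.

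The chains of inhibin went together across populations. Inha stood at 16.8 per 10000 in Sertoli cells and 11.3 in other somatic cells, a log2 ratio of -0.56 that is under 2-fold and turns to 0.62 when both populations are scaled to their Sertoli markers. Inhbb stood at 3.65 and 1.23, a log2 ratio of -1.498, which was -0.37 on that scaling. In germ cells Inha ran from 0.558 (diff. SpG) to 5.95 (ES) and Inhbb from 0.0726 (RS) to 0.711 (ES), so neither reached its somatic levels. Unknown cells, a population of 99 cells in which the Leydig markers summed to 26.5 and the 5 endothelial markers to 25.0, had Inha at 4.17 and Inhbb at 0.664. Inha and Inhbb had an r of 0.97 with each other. Inha was most like Cst12, Defb19 and Tmem184a (r 0.994 to 0.997), and Inhbb most like Sox9, Slc52a3 and Fndc5 (0.99 each), of which Cst12 and Sox9 are Sertoli markers.

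Both factors that act on spermatogonia were higher in Sertoli cells. Kitl stood at 7.11 per 10000 in Sertoli cells, 4.68 in unknown cells and 2.08 in other somatic cells, and in germ cells it ran from 0.170 (diff. SpG) to 1.23 (ES). Its log2 ratio, other somatic over Sertoli, was -1.72. For Kitl unknown cells came before other somatic cells, and the genes most like it were Jam2, Edn1 and Spock2 (r 0.98 to 0.99). Gdnf was low everywhere, with 0.221 in Sertoli cells and 0.0825 in other somatic cells, a log2 ratio of -0.82 that is under 2-fold with 0.1 added, -1.32 and so past 2-fold with 0.01 added, and -0.17 with 1 added. Gdnf ran from 0.00518 (mP/lP) to 0.0391 (ES) in germ cells, and in unknown cells it was listed at 0, where 3 UMIs would have given 0.0404. Gdnf was most like Erbb4, Pofut2 and Wnt6 (r 0.94 to 0.95).

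Dhh was close to Inhbb in its pattern. Its level was 2.89 per 10000 in Sertoli cells, 0.761 in other somatic cells, 0.520 in unknown cells and 0.492 in ES, and the other germ cell populations ran from 0.0482 (diff. SpG) to 0.370 (eL/L/Z). The log2 ratio, other somatic over Sertoli, was -1.80. Dhh was most like Qpct, Enpp2 and Inhbb (r 0.989 to 0.995). Scaled to the Sertoli markers, which are themselves 2.28 times lower in sum in other somatic cells, Amh was the single member that stayed at least 2-fold lower there, beside 0.642% of all genes tested. On that scaling the log2 ratios of Inhbb, Kitl, Gdnf and Dhh lay between -0.71 and -0.16.

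Clu and Trf were higher in other somatic cells. Clu stood at 91.5 per 10000 there, 34.1 in Sertoli cells, 31.3 in ES, 23.8 in unknown cells and 22.8 in Nfya-CKO SpG, and the other 8 germ cell populations ran from 1.55 (mP/lP) to 8.20 (eL/L/Z). Its log2 ratio was 1.42. ES and Sertoli cells had almost the same level of Clu, ES at 91.9% of Sertoli cells, and no replicate error is at hand to separate them. Clu was most like Gstm7, Nr5a1 and Scara3 (r 0.99 each), where Nr5a1 encodes a factor of Sertoli and Leydig cells. Trf stood at 0.872 in other somatic cells, 0.396 in Nfya-CKO SpG, 0.392 in ES and 0.151 in Sertoli cells, close to the 0.154 of undiff. SpG and 0.161 of unknown cells. Its log2 ratio was 1.95 with 0.1 added, 2.45 with 0.01 and 0.70, under 2-fold, with 1, and Sulf2, Itga9 and Wfdc18 were most like it (r 0.95 to 0.98).

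Ptgds and Lcn2 stood far lower in Sertoli cells than in other somatic cells. Ptgds stood at 52.3 per 10000 in other somatic cells, 11.8 in Nfya-CKO SpG, 5.73 in unknown cells, 2.45 in ES and 0.0815 in Sertoli cells, and the remaining germ cell populations ran from 0.0113 (pL) to 0.660 (diff. SpG). Lcn2 stood at 19.3 in other somatic cells, 4.88 in unknown cells, 4.29 in Nfya-CKO SpG and 0.518 in ES, and at 0.000251 in Sertoli cells, which is about 1.09 UMIs. On the log2 scale of value + 0.1 the ratios were 8.17 for Ptgds and 7.59 for Lcn2, and both depend on the added 0.1. With 1 added and with 0.01 added the ratio of Ptgds was 5.62 and 9.16, and that of Lcn2 4.34 and 10.9.

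Over the 13 populations Ptgds was most like Insl3 (r 0.99), Jak3 (0.99) and Cyp17a1 (0.98), and Lcn2 most like Cyp17a1 (0.99), Ephx1 (0.99) and Jak3 (0.99). Insl3 lies wholly within Jak3 on the genome, so that the levels of both in other somatic cells, 177.5 per 10000 each, cannot be told apart. Ptgds and Lcn2 had an r of 0.97 with each other and of -0.29 and -0.26 with Amh. These correlations are over 13 pooled means that share libraries. Insl3 and Cyp17a1 are Leydig markers, and the high RNA levels of Ptgds and Lcn2 rest on the 1 mixed column of other somatic cells. The label of tubule factors was thus not borne out for these 2 genes by the RNA of Sertoli cells, 87.8% of which came from 11 dpp. Trf RNA was low there too, at 0.151 and with rank 6 of the 13 populations. The accessibility of Ptgds, described next, was highest in Sertoli cells. Which cells made Ptgds and Lcn2 was not tested. The 6 neutrophil markers, of a cell type known for Lcn2, were at 0.000179 to 0.00934 per 10000 in other somatic cells. Whether this mixed population held a few neutrophils was not tested.

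Accessibility gave another order. The scATAC-seq matrix holds 1 value per gene and population, scaled here to a sum of 1000000, and the authors' cell tables hold 3190 Sertoli cells and 1942 other somatic cells with both readouts, 1217 of the latter from Nfya-CKO. Which cells were averaged into the matrix is not stated. The methods define promoter accessibility as coverage around the start site in tracks merged per cell type, and they do not say whether this matrix was made so. Of the 10 genes 8 had their highest accessibility of all 13 populations in Sertoli cells, beside 6.26% of 30404 genes that peak in either somatic population. By size 8 were at least 1.5-fold lower in other somatic cells on the scale of value + 1, beside 21.3% of all genes, and 1, Lcn2, was at least 1.5-fold higher, beside 5.88%. The median log2 ratio was -1.002 over the 10 genes and -0.28 over all genes. Mitochondrial genes took 64.5% of the signal in other somatic cells and 51.0% in Sertoli cells, and once they were left out 4 of the 10 (Clu, Amh, Inhbb and Dhh) were at least 1.5-fold lower, beside 6.3% of all genes.

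Clu had 58.0 per 1000000 in Sertoli cells, 49.7 in unknown cells, 31.7 in ES and 19.0 in other somatic cells, a log2 ratio of -1.56 where its RNA had 1.42. Trf had 16.1 in Sertoli cells and 10.2 in other somatic cells (-0.61), with ES at 17.0 above both, and Ptgds had 13.5 and 9.08 (-0.52). These 3 genes had a log2 ratio above 0 in RNA and below 0 in accessibility, as had 46.3% of 13680 genes tested in both, but without mitochondrial genes the accessibility ratios of Trf and Ptgds were near 0 (-0.19 and -0.10), and that of Clu was -1.13. Lcn2 had 3.42 in Sertoli cells, 14.5 in other somatic cells and 15.4 in unknown cells, with a log2 ratio of 1.81, and was the single member higher in both readouts. ES and unknown cells had 124 and 54 cells with both readouts.

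The 6 genes led by Sertoli cells in RNA were also led by them in accessibility. Amh had 51.1 per 1000000 in Sertoli cells against 16.8 in other somatic cells, with 12.2 (mP/lP) to 40.1 (ES) in germ cells, so that its accessibility spanned a far narrower range than its RNA. Inha had 52.7 and 25.5, and Inhbb 53.4 and 21.3, with 38.4 in pL and 36.4 in undiff. SpG. Kitl had 44.6 and 23.3, with 28.2 in undiff. SpG. Gdnf had 38.7 and 19.1, with 32.5 in undiff. SpG, and Dhh 26.4 and 8.91, with 14.7 in undiff. SpG. The log2 ratios of the 6 lay between -1.55 (Amh) and -0.91 (Kitl). In undiff. SpG these 6 genes were thus at 45.0% to 83.8% of their Sertoli accessibility, while their RNA there was at 3.90% to 7.98%. Mitochondrial genes took 40.6% of the accessibility signal in undiff. SpG and 51.0% in Sertoli cells, so these accessibility shares would be lower without them. Like shares over all genes were not computed, so nothing particular to the 6 genes is read from this.

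**Figure D3:**
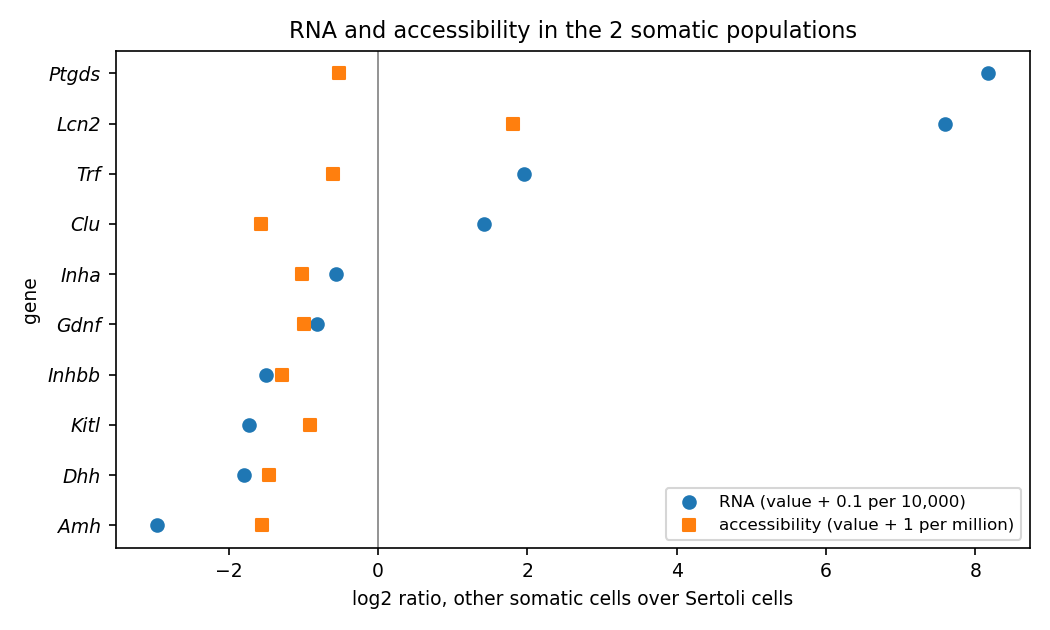
Log2 ratio of other somatic cells over Sertoli cells for RNA (circles, value + 0.1 per 10000) and accessibility (squares, value + 1 per 1000000) of the 10 genes, ordered by RNA. Clu, Trf and Ptgds lie right of 0 in RNA and left of 0 in accessibility, and Lcn2 lies right of 0 in both.

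Germ cells held a part of the summed RNA of every member. With the 9 control germ cell populations and both somatic populations weighted equally, germ cells held 4.14% of Lcn2, 7.44% of Ptgds and 19.4% of Amh. Kitl (30.5%), Inhbb (31.1%), Dhh (31.3%), Clu (32.4%), Gdnf (36.1%) and Inha (37.8%) lay close together, and Trf reached 48.2%. Of the 10 genes 2 were under 10%, beside 0.153% of 15036 genes, and the median was 31.2% over the 10 and 85.4% over all genes. Weighted by the total UMIs of each population instead, the shares were lower: 0.836% for Lcn2, 1.66% for Ptgds, 9.09% for Amh, 10.5% for Clu, 12.6% for Kitl, 12.7% for Inhbb, 13.2% for Dhh, 16.2% for Gdnf and Inha and 21.0% for Trf, with 3 members under 10% beside 0.712% of all genes. The shares of Ptgds, Lcn2, Trf and Clu depend on other somatic cells as well. With Sertoli cells as the only somatic population, germ cells held 98.1% of Ptgds, 99.97% of Lcn2, 86.3% of Trf and 63.8% of Clu. The remaining members then ran from 19.9% (Amh) to 50.5% (Inha), and 0 members and 0 of all genes were under 10%. With Nfya-CKO SpG counted as a germ cell population, the share of Ptgds was 23.4% and that of Lcn2 21.0%, and again 0 genes were under 10%.

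ES had the highest level of 9 members among control germ cells, beside 14.7% of 15036 genes, and eL/L/Z that of Amh. For Gdnf the lead of ES is too small to rank, 0.0391 on about 15.1 UMIs against 0.0366 in eL/L/Z on about 71.5. Without ES the germ share of Clu was 18.7%, of Ptgds 3.24% and of Lcn2 1.60%, an alternative added after the data were seen. Sertoli markers were present in ES too: the 12 stood at 44.6% to 91.4% of their level in other somatic cells, while Insl3 stood at 2.15% and 7 of the 8 Leydig markers between 2.15% and 3.50%, with Star at 21.6%. Inha, Inhbb, Kitl, Gdnf and Dhh stood at 47.4% to 64.7%, Trf at 45.0%, Clu at 34.3%, Ptgds at 4.70%, Lcn2 at 2.69% and Amh, on about 1.68 UMIs, at 13.6%. Of the 124 ES cells with a scATAC-seq profile 20 (16.1%) were named Sertoli cells from their chromatin. The part of Sertoli RNA or of shared barcodes in the ES levels was not tested.

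In eL/L/Z, where Amh had its highest germ cell level, the 6 genes led by Sertoli cells stood at 7.66% (Amh) to 23.5% (Inha) of their Sertoli level. The 12 Sertoli markers stood there at 10.5% to 131.5% of theirs, with a median of 17.5%. The upper end is set by Tsx, which was higher in other somatic cells than in Sertoli cells, here and in the ranges that follow. In diff. SpG the same 6 genes stood at 0.677% to 5.60% and the markers at 1.23% to 71.8% (median 3.53%), and in mP/lP at 1.16% to 4.13% and 2.65% to 60.02% (median 3.74%). In eL/L/Z Amh and Kitl (10.1%) lay below the lowest marker, and in mP/lP every one of the 6 but Inha did. Amh lay above the lowest marker in undiff. SpG (4.66% against 4.11%) and pL (5.57% against 4.62%), and below it in L/Z/eP (2.42% against 6.25%), D (1.53% against 3.86%) and RS (0.691% against 1.99%), while its UMIs in diff. SpG and ES are too few to compare. The source of these germ cell levels was not tested.

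Nfya-CKO SpG held 7 members and the markers of Sertoli and Leydig cells at like shares of their level in other somatic cells. The 12 Sertoli markers stood in them at 19.8% to 25.2% of their level in other somatic cells and the 8 Leydig markers at 16.3% to 24.6%, a like share for genes of both cell types. Markers of other cell types spread more widely, the peritubular ones from 3.08% (Acta2) to 23.6% (Cnn1), the endothelial ones from 19.8% (Cdh5) to 364.6% (Emcn) and the macrophage ones from 29.8% (Mrc1) to 183.5% (Adgre1). Cnn1, Emcn and Adgre1 did not pass the filter on low values, so these upper ends are ratios of very low levels. Among markers that passed it, the highest were Actg2 (9.81%), Pecam1 (230.4%) and Cd68 (72.7%). Clu stood at 24.9%, Inha at 22.2%, Inhbb at 22.5%, Kitl at 18.6%, Dhh at 17.7%, Ptgds at 22.5% and Lcn2 at 22.3%. These 7 shares lie within the range of the Sertoli and Leydig markers, and the source of the RNA was not tested. Amh (36.1%), Gdnf (36.8%) and Trf (45.5%) lay above it, but the first 2 rest on about 11.3 and 29.7 UMIs in these cells, and Trf on about 388. In accessibility, Ptgds had 2.86 per 1000000 and Lcn2 3.77 in Nfya-CKO SpG, against 9.08 and 14.5 in other somatic cells. Both values lay within the range of the control germ cell populations. That range ran from 2.37 (undiff. SpG) to 9.84 (ES) for Ptgds and from 1.91 (undiff. SpG) to 7.80 (RS) for Lcn2.

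**Figure D4:**
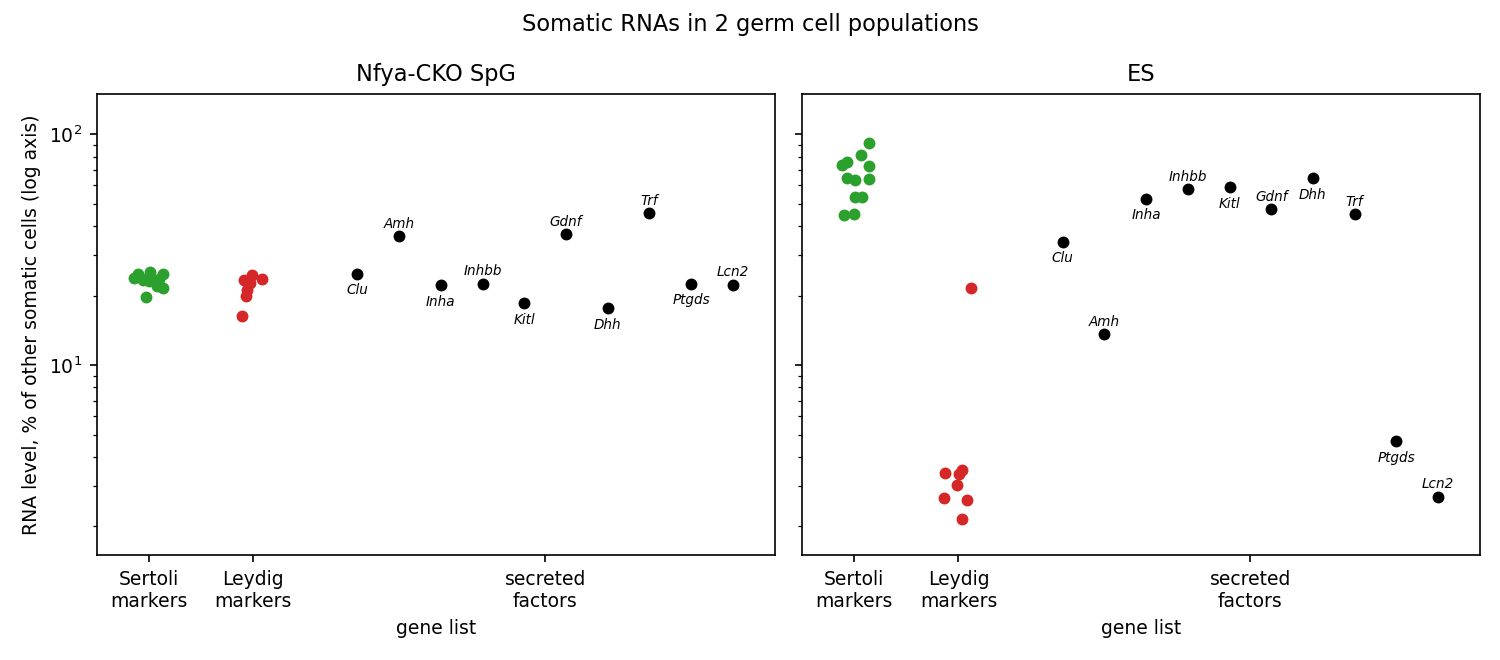
RNA level in Nfya-CKO SpG (left) and ES (right) as a percent of the level in other somatic cells, on a log axis, for 12 Sertoli markers, 8 Leydig markers and the 10 secreted factors. In Nfya-CKO SpG these markers span 16.3% to 25.2%. In ES the Sertoli markers span 44.6% to 91.4%, and the Leydig markers 2.15% to 3.50% except Star at 21.6%. Lcn2 (2.69%) lies among the Leydig markers in ES, and Ptgds (4.70%) above all of them but Star.

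Receptors and partners of the 10 factors were read from a list of 24 genes, of which 19 passed the filter. Of these, 4 were at least 2-fold higher in other somatic cells (among them Tgfbr3, Gli1 and Hhip, of which Gli1 and Hhip passed the filter through other somatic cells alone), 3 at least 2-fold lower (Bmpr1a, Acvr2b and Smo), beside 17.8% higher and 6.8% lower of all genes tested, and the median log2 ratio was 0.22, beside 0.16 over all genes. Receptors of the germ cell side peaked in germ cells. Kit was highest in pL (2.09 per 10000) and stood at 0.253 in Sertoli cells and 0.521 in other somatic cells, close to the 0.548 of undiff. SpG. Ret and Gfra1 were, of the control germ cell populations, highest in undiff. SpG (2.30 and 1.08). They stood at 0.138 and 0.0551 in Sertoli cells and at 0.312 and 0.1465 in other somatic cells. In Nfya-CKO SpG, Kit stood at 1.08, Ret at 1.36 and Gfra1 at 1.20.

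Amhr2, the AMH receptor and a Sertoli marker, stood at 5.03 in Sertoli cells, 10.1 in other somatic cells and 5.38 in ES, with a log2 ratio of 0.99 just under 2-fold, while its ligand Amh had -2.96. The shared type I receptor Bmpr1a stood at 2.86 and 0.866 (-1.62). The hedgehog receptor Ptch1 stood at 1.81 in Sertoli cells, 0.886 in other somatic cells and 1.502 in undiff. SpG, and the hedgehog target Gli1 at 0.00468 and 0.188 (1.46). Tgfbr3, the inhibin co-receptor, stood at 0.0526 and 1.63 (3.50). The activin receptors Acvr2a (0.697 and 0.323), Acvr2b (0.553 and 0.199) and Acvr1b (0.503 and 0.236) were lower in other somatic cells, with Acvr2b past 2-fold, and Acvr2b peaked in pL at 2.39.

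The transferrin receptor Tfrc was highest in pL (1.32), with 0.657 in Sertoli cells and 0.420 in other somatic cells. Of receptors for the lipocalins, Slc22a17 stood at 0.673 and 0.585 and Lrp2 at 0.0114 and 0.0175, both below their highest control germ cell levels of 0.766 (diff. SpG) and 0.0787 (RS), with 1.07 and 0.162 in Nfya-CKO SpG. Lrp8, a receptor that binds clusterin, stood at 2.64 and 3.17, with 3.25 in RS. The prostaglandin D2 receptor genes Ptgdr and Ptgdr2 stood at or near 0 in both somatic populations (0.00151 or less) and did not pass the filter.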

How the data were processed

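Nuclei of whole testes were profiled by BD Rhapsody multiome with 5 scRNA-seq and 5 scATAC-seq libraries, 1 per condition, grouped by their labels. By the methods and processing notes, the authors aligned to mm10 with STAR 2.7.10b and BWA 0.7.12, used bedtools 2.27.1, removed nuclei with few genes or fragments, high mitochondrial share, low TSS enrichment or doublet calls, and named populations with Seurat 5.2.1 and ArchR 1.0.3. The authors deposited the count of UMIs or fragments of each cell, not normalised. The percent of mitochondrial UMIs and the TSS enrichment ratio (coverage at start sites over flanks) of each cell are deposited by the authors too. The authors deposited 1 matrix per assay of the natural log of 1 plus a mean per population, whose antilog minus 1 sums to 10000. By the methods, each cell's UMIs were scaled to 10000 and logged; that the matrices hold the log of 1 plus a mean was found from the values, and whole UMIs could not be recovered. 19 other columns in these tables stayed unused.

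Values were turned back with Python 3.11.15, numpy 2.4.6 and pandas 2.3.3, and accessibility was scaled to 1000000. UMIs behind a level were estimated as level × the population's total UMIs / 10000. Folds used value + 0.1 (RNA, mean of at least 0.05 over both populations, 2-fold) or value + 1 (accessibility, non-mitochondrial genes with signal, 1.5-fold). No p-value was computed, as each condition is 1 library and cells are not replicates. Calls and the ranking of like genes were tested on simulated data. Changes were planted only in genes above a mean level that Amh and Gdnf did not reach. The planted like gene was a near copy of Amh. No effect of library, age or shared barcodes was simulated, so this checks the calculation and no result. All 10 members are named. Of list genes, those at 1 per 10000 or more in a somatic population, or direct receptors, could be named, and others were chosen after their values were seen. For each member the 3 genes with the highest r were named, out of 10386 genes averaging 0.2 or more. The members and lists were chosen with earlier results of these data known. Alternatives changed the pseudocount, the filter, the scaling and the populations summed. The values of 1 gene of the receptor list are not reported here.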

Additional observations from a re-analysis of the deposited data

How the results depend on the processing

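Each result rests on 1 library per condition and on means that the authors pooled, so no spread between animals is known. Depth limits Amh in ES, diff. SpG and unknown cells, Gdnf in diff. SpG and unknown cells, and Lcn2 in Sertoli cells, undiff. SpG and pL, each on under 10 estimated UMIs. The 4 members at least 2-fold higher in other somatic cells were Clu, Trf, Ptgds and Lcn2 under 5 of 6 alternatives, and 3 with a pseudocount of 1, where Trf fell short. The count at least 2-fold lower was 4, between 3 and 5 under 5 of 6 alternatives, and 1 when scaled to the Sertoli marker list. By accessibility, 8 members were lower (21.3% of all genes), 8 without a pseudocount (31.8%), 7 with 5 added (10.8%), 6 centred on the median (6.19%), and 4 scaled without mitochondrial genes (6.3%), while 1 member, Lcn2, was higher under all 4 alternatives. The count of members with under 10% of their RNA in germ cells was 2, 3 weighted by total UMIs, 2 without ES, 0 with Sertoli cells as the only somatic population and 0 with Nfya-CKO SpG added. Why these counts moved was not tested further than the construction of each alternative shows. Centring used the median of genes at 1 per 10000 or more in both populations for RNA (-0.29) and of all nuclear genes with signal in both for accessibility (-0.39), and moved the median over all genes tested from 0.16 to 0.37 and from -0.28 to -0.0044. The share of all genes 2-fold higher in other somatic cells was 17.8%, 26.9% with 0.01 added, 1.53% with 1 added, 8.67% with no filter, 14.6% with a mean of at least 0.2, 24.1% on centring and 55.3% on the Sertoli scaling. The share 2-fold lower was 6.8%, and in the same order 10.1%, 1.45%, 3.31%, 9.52%, 3.94% and 0.642%. No called log2 ratio of a member changed sign. No paired analysis was possible because each condition is 1 library and the matrix columns carry no replicate.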

Other observations

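Other factors that somatic cells of the tubule are known to secrete were read from a list of 28 genes, of which 25 passed the filter on low values. By size 7 were at least 2-fold higher in other somatic cells than in Sertoli cells (Inhba, Igf1, Bmp4, Wnt4, Cxcl12, Cp and Timp1) and 4 at least 2-fold lower (Fstl3, Shbg, Cst9 and Plat), beside 17.8% and 6.8% of all genes tested. Of the 7 all but Cp passed the filter through other somatic cells alone, so nothing is read from their number. The list had a median log2 ratio of 0.36 beside 0.16 over all genes. Plat, the tissue plasminogen activator, stood at 2.87 per 10000 in Sertoli cells and 0.677 in other somatic cells (log2 ratio -1.94). Shbg, the androgen-binding protein, stood at 1.66 and 0.493 (-1.57), and the follistatin-like activin antagonist Fstl3 at 3.50 and 1.41 (-1.25). The cystatins Cst9 and Cst12 stood at 25.6 and 9.67 and at 5.07 and 3.49. Sparc, a matrix-binding protein, stood at 58.1 and 42.2, and Ctsl, a secreted protease, at 10.5 and 8.11, both under 2-fold. Igf1 stood at 0.0339 and 1.40 (3.48) and Cp, the copper carrier ceruloplasmin, at 0.164 and 1.03 (2.09). Unknown cells, which had the endothelial markers Cdh5 at 7.26 and Pecam1 at 5.31 and the Leydig marker Insl3 at 20.5, had Cxcl12 at 12.8 and Sparc at 85.2 against 0.682 and 42.2 in other somatic cells. In accessibility 15 of the 28 were at least 1.5-fold lower in other somatic cells and 2 at least 1.5-fold higher, beside 21.3% and 5.88% of all genes. The all-gene share lower was 6.3% once mitochondrial genes were left out. The list's own count on that scaling is not given here, so 15 cannot be set beside 6.3%.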
